A study of Canis lupus familiaris with 4 samples.

Results

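Gene expression in the E22B transfectant of MDCK cells was compared with that in the MDCK-CMV control. MDCK is an epithelial line of canine kidney. E2-2, the factor named in the study's title, is the product of the TCF4 gene. The comparison comprises the 2 arrays titled E22B out of 4 arrays in the series, and its members are the 5280 genes with 1 symbol and a value on both arrays, of 6043 such genes on the array. The other 763 genes lacked a value on at least 1 of them. Array 1 carried E22B in Cy3 and the control in Cy5, and array 2 carried the same RNAs with the dyes exchanged, per the channel labels. Both cell lines were grown in DMEM with serum and passaged with trypsin, and amplified RNA was labelled. The protocol text of array 2 calls its control MDCK-CONTROL, while the array descriptions name MDCK-CMV. The design text speaks of each transfectant as a clone, so E22B may stand for 1 isolate, and the sources used here do not give the promoter that drives the transfected gene. Both arrays hold 1 biological sample against 1 control, so every SD below is over 2 arrays, measures technical spread, and supports no test.

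Class I basic helix-loop-helix proteins, which include E2-2 and E47, bind E-box sequences as homodimers or as heterodimers with tissue-specific partners. Id proteins dimerise with them but lack the DNA-binding region, so they act as inhibitors. In kidney epithelial cells these factors are known as repressors of E-cadherin and as drivers of the epithelial-mesenchymal transition, in which cells lose their junctions and take up matrix and motility programmes.

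Values are log2 ratios, centred on each array's median, with the sign of array 1 turned so that both arrays read the same way. The base of the logarithm is assumed. A positive value means higher in E22B if the authors divided Cy5 by Cy3, and lower if they divided Cy3 by Cy5. The absolute direction is therefore open. Under the usual Cy5 over Cy3, CDH1 would be higher in E22B, which opposes the loss of E-cadherin for which E2-2 transfectants are known. Genes on the same side share it whichever dye is the numerator, and "positive" and "negative" are used below for the sides only.

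The arrays measured 23136 and 22360 of 27648 spots, and duplicate spots correlated at 0.901 on array 1 and 0.965 on array 2. Most genes stood near the control. In bulk RNA, fewer cells that make a transcript and less of it per cell cannot be told apart. On both arrays 4253 genes (80.5%) lay within 0.5 of 0, and the quartiles of all genes ran from -0.14 to 0.18 on array 1 and from -0.14 to 0.20 on array 2. After turning, the arrays correlated across genes at r = 0.353 (Spearman's rank correlation 0.467), a description over 5280 genes that share the same RNAs and print run. In all, 1898 genes (35.9%) were positive on both arrays, 1698 (32.2%) negative on both, and 1684 (31.9%) switched side between arrays. These shares are the baseline for the group counts below. The median difference between a gene's values on the arrays was 0.16, and its 90th percentile was 0.59.

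At 2-fold or more on both arrays, 33 genes were positive (0.625% of the 5280) and 5 were negative (0.0947%). A further 9 genes reached that size on both arrays with opposite signs. At 1.5-fold the numbers were 133 positive (2.52%) and 24 negative (0.455%), with 32 on opposite sides. Positive genes outnumbered negative ones at both sizes, although the sides were nearly balanced over all genes. On array 1 alone 102 genes were at 1 or more and 52 at -1 or less, and on array 2 alone 131 and 45. Just outside the 2-fold limit were KISS1R (-1.19 and -0.999 on arrays 1 and 2), KYNU (-1.40 and -0.998), CH25H (1.16 and 1.00) and BMP4 (-1.20 and -0.997). Just inside it were CD151 (1.02 and 1.27), P2RX4 (1.06 and 1.03) and FGB (1.03 and 2.27).

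**Figure D1:**
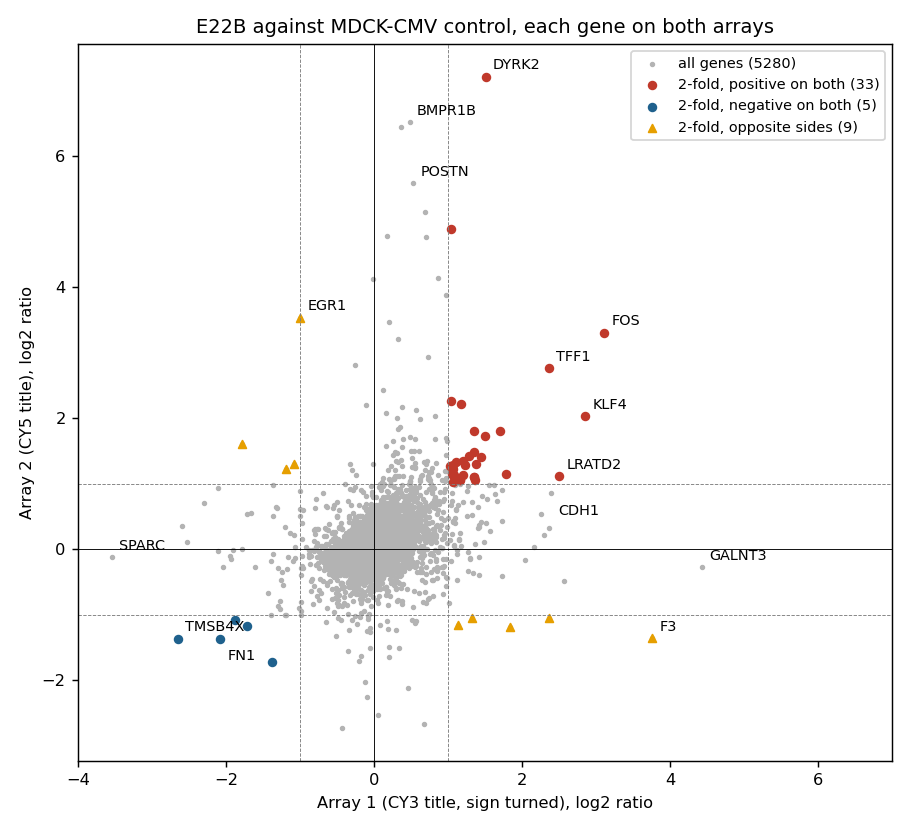
Each of 5280 genes by its log2 ratio on array 1 (sign turned, x axis) and array 2 (y axis), with dashed lines at 2-fold. The 33 positive and 5 negative genes past 2-fold on both arrays lie in the upper right and lower left corners, 6 of them with arrays more than 1 apart. Another 9 genes lie on opposite sides, and a string of genes such as BMPR1B and POSTN is far from 0 on array 2 only.

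Ranked by the smaller of a gene's values on the arrays, FOS, TFF1 and KLF4 led the positive side. FOS, an immediate early transcription factor, stood at 3.11 on array 1 and 3.31 on array 2, a mean of 3.21 ± 0.14 (SD, n = 2 arrays). TFF1, a secreted trefoil peptide of mucosal epithelia, stood at 2.36 and 2.77, and KLF4, a zinc finger factor of differentiating epithelium, at 2.85 and 2.04. Their means of 2.57 ± 0.29 and 2.44 ± 0.57 correspond to 5.92-fold and 5.43-fold ratios. Another FOS clone, which lacked a value on array 2, stood at -0.07 on array 1, so the FOS value rests on 1 of 2 clones that disagreed on that array.

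Several other positive genes had close values on both arrays. PJA2, a ubiquitin ligase that acts on protein kinase A, stood at 1.70 and 1.80, and TRIP10, an F-BAR membrane-bending protein, at 1.49 and 1.73. PLSCR2, of the phospholipid scramblase family, stood at 1.35 and 1.48. STEAP1, of a family of membrane metalloreductases, was further apart at 1.18 and 2.21. The surface peptidase DPP4 stood at 1.34 and 1.10, and DCUN1D5, a cofactor of cullin neddylation, at 1.34 and 1.11. LRATD2 was more uneven, at 2.50 and 1.12.

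Several regulators and surface proteins were just past 2-fold. MAP3K7, the kinase TAK1 of TGF-beta and cytokine signalling, stood at 1.06 and 1.13. The ETS factor ELF2 stood at 1.14 and 1.07, and IDO1, which degrades tryptophan, at 1.07 and 1.14. ADAMTS3, a procollagen-processing protease, stood at 1.05 and 1.14, the tetraspanin CD151 at 1.02 and 1.27, and TSNAX, the partner of translin, at 1.06 and 1.29. P2RX4, an ATP-gated channel, had nearly the same value on both arrays, 1.06 and 1.03.

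Of the 38 genes past 2-fold, 27 had arrays within 0.5 of each other and 6 had arrays more than 1 apart. The widest was DYRK2, a protein kinase, at 1.51 and 7.22, followed by TOR1AIP1, of the nuclear envelope, at 1.04 and 4.88. Their means of 4.36 ± 4.04 and 2.96 ± 2.72 are set by array 2. FGB, the fibrinogen beta chain, stood at 1.03 and 2.27.

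The negative side was short and held matrix and actin genes. FN1, fibronectin, stood at -2.08 and -1.36, a mean of -1.72 ± 0.51. TMSB4X, a thymosin that holds actin monomers, stood at -2.65 and -1.36, and TMSB4Y, its close relative, at -1.72 and -1.17. Their sequences are similar, and cross-hybridisation was not tested, so they may not be separate signals. CLEC11A, a secreted lectin-type growth factor, stood at -1.38 and -1.72, and another of its clones, measured on array 1 only, at -1.12. ESM1, a secreted endothelial proteoglycan, stood at -1.88 and -1.08. Array 1 was the larger in size for 4 of these 5 genes and array 2 for CLEC11A.

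**Figure D2:**
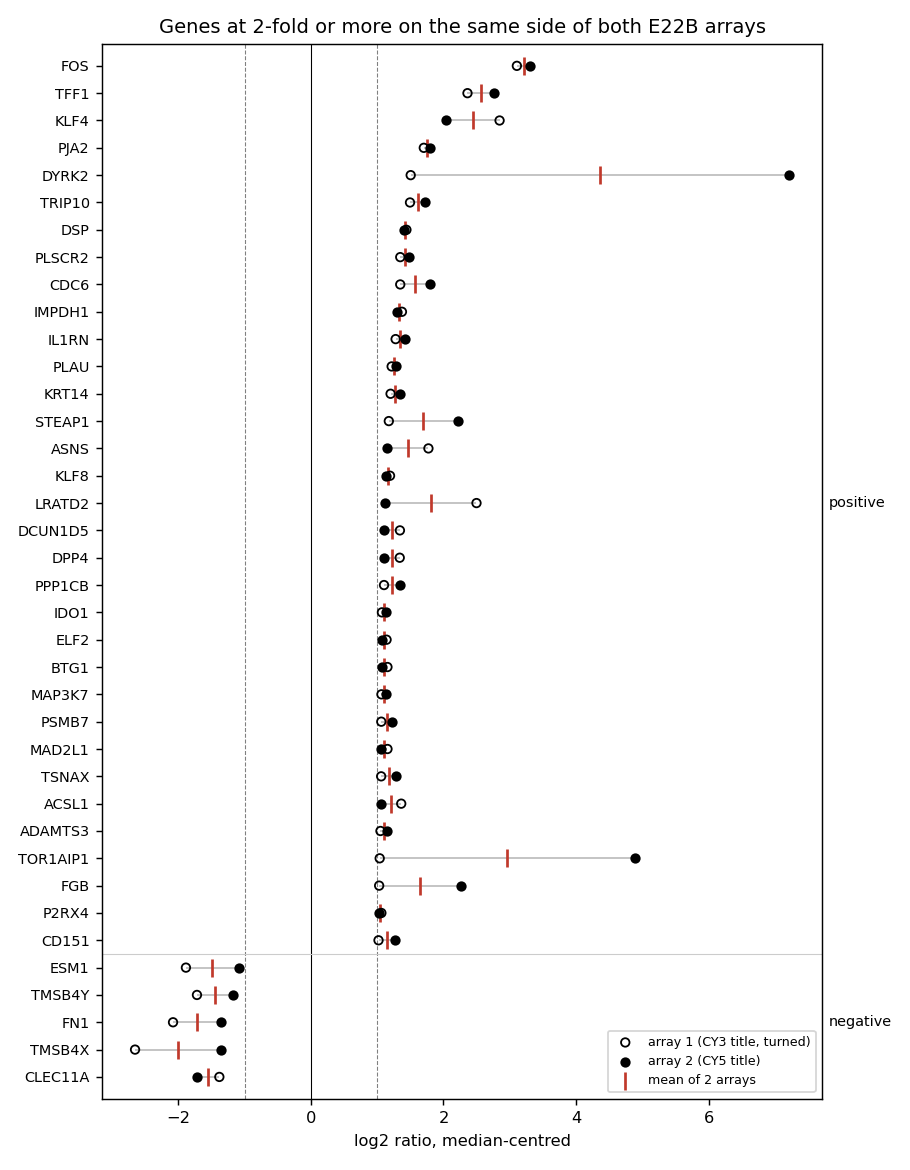
Values of the 38 genes that passed 2-fold on both arrays with 1 sign, array 1 (open, sign turned) and array 2 (filled), with the mean of both (red bar) on the log2 axis. Most pairs lie close together, and DYRK2 and TOR1AIP1 are wide apart.

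Only 1 of the 38, IMPDH1, rested on more than 1 measured clone, and 8 had another clone that lacked a value on an array. IMPDH1, of guanine nucleotide synthesis, had clones at 0.26, 2.40 and 1.47 on array 1 and at 0.30, 2.09 and 1.501 on array 2. Averaging clones hid others: 59 genes had some clone at 2-fold on both arrays, and for 21 of them the gene's mean was not past 2-fold on both arrays. Of the 22 with several measured clones, 13 had a clone that did not lie on the side of the 2-fold clone on both arrays. IGFBP5, an insulin-like growth factor binding protein, is an example: its first clone stood at 1.60 and 2.35, while another stood at -0.15 and -0.72. RAB6A, a Golgi GTPase, had clones at 1.56 and 1.39 on array 1 (1.26 and 1.15 on array 2) beside others at -0.20 and 0.00. Clones of 1 gene can cover different parts of its transcript, and they were designed for human genes and read with dog RNA.

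Among cadherins, CDH1 (E-cadherin, the core of epithelial adherens junctions) was positive on both of its measured clones. One clone stood at 3.71 and 0.92, and the other at 1.08 and 0.79. The size on array 1 therefore rests on 1 clone, and on array 2 both clones were below 2-fold. CDH2, N-cadherin, lay at -0.81 on array 1 and 0.31 on array 2, and CDH6, a kidney cadherin, at -2.11 and 0.94, so neither kept its side. CDH16, the kidney-specific cadherin, stood at 0.02 on both arrays.

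The partners of E-cadherin took both sides. CTNNB1, beta-catenin, had a clone at -1.35 and -1.27 and another at 0.20 and 0.06, so the gene's value of -0.59 ± 0.02 averages clones on opposite sides. CTNNA1, alpha-catenin, stood at -0.25 and -0.01. CTNND1, p120-catenin, stood at 0.51 and 0.13, with 1 of its 3 clones at 0.67 and -0.004. AFDN, which ties nectins to actin, stood at 0.37 and 0.31. It too averages clones on opposite sides, at -0.22 and -0.31 and at 0.96 and 0.93. With clones averaged, of 8 measured genes of this kind 2 were positive on both arrays, 2 negative and 4 switched side. None of the 3 measured claudins, the strand proteins of tight junctions, kept its side: CLDN1 stood at 0.39 and -0.53, CLDN4 at 0.63 and -0.29, and CLDN2 at -0.07 and 0.38.

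Desmosomes anchor keratin filaments at cell-cell contacts. DSP, desmoplakin, stood at 1.44 and 1.41. DSC2, a desmosomal cadherin, was positive on all 3 of its measured clones, from 0.61 to 1.09 on array 1 and from 0.28 to 0.31 on array 2. PKP4, of the plakophilin family, stood at 0.61 and 0.42. Of 10 measured desmosomal genes 4 (40%) were positive on both arrays, 0 negative and 6 switched side. Over all genes 35.9% were positive and 32.2% negative. The desmosomal median was 0.13 beside 0.01 over all genes.

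Keratins went to both sides. KRT14, a basal keratin, stood at 1.20 and 1.34, and KRT16, a keratin of activated epidermis, at 0.43 and 0.39. The simple-epithelium keratins were on the other side of 0 with most of their size on array 1, KRT7 at -1.37 and -0.07 and KRT8 at -0.75 and -0.04. KRT18 and KRT19 had no value on both arrays. A group of 11 measured genes for surface and secreted products of epithelia also held the transcription factor KLF4. Of these, 7 (63.6%) were positive and 2 (18.2%) negative (median 0.38), beside 35.9% and 32.2% of all genes. PROM1 (CD133) stood at 0.19 and 0.57 and SPINT1, an inhibitor of matriptase, at 0.17 and 0.71. ST14, which is matriptase itself, stood at -0.15 and -0.28.

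The transfected gene's symbol, TCF4, stood at -0.41 and 0.06 on its first clone and at -0.14 and 0.11 on its second, so it took no side. The sources used here do not say whether these clones detect the transfected form, so TCF4 checks neither label nor direction. Of the other class I factors, TCF12 (HEB) stood at 0.56 and 0.41 and TCF3 (E47 and E12) at -0.43 and -0.36.

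All 4 Id genes were negative on both arrays when clones were averaged, beside 32.2% of all genes, with a median of -0.37. ID3 stood at -0.74 and -0.62, with both measured clones negative, and ID4 at -0.72 and -0.10. ID4 averages a clone at -0.89 and -0.22 with another at -0.55 and 0.01, so that clone was not negative on both arrays. ID2 had 4 clones, all negative, from -0.99 to -0.01 on array 1 and from -0.17 to -0.09 on array 2. ID1 stood at -0.23 and -0.41 on the clone measured on both arrays, which had a value from only 1 spot on each. Another ID1 clone, measured on array 1 only, stood at -2.10. Of these only ID3 was past 1.5-fold on both arrays.

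Among genes known to repress E-cadherin, KLF8, a zinc finger factor, was the only one past 1.5-fold, at 1.19 and 1.13. SNAI1 (Snail) stood at 0.22 and 0.44 and CTBP2, a corepressor, at 0.07 and 0.33. TWIST1 (-0.35 and 0.28) and ZEB1 (-0.10 and 0.15) switched side. SNAI2 had no value on both arrays and ZEB2 no clone.

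**Figure D3:**
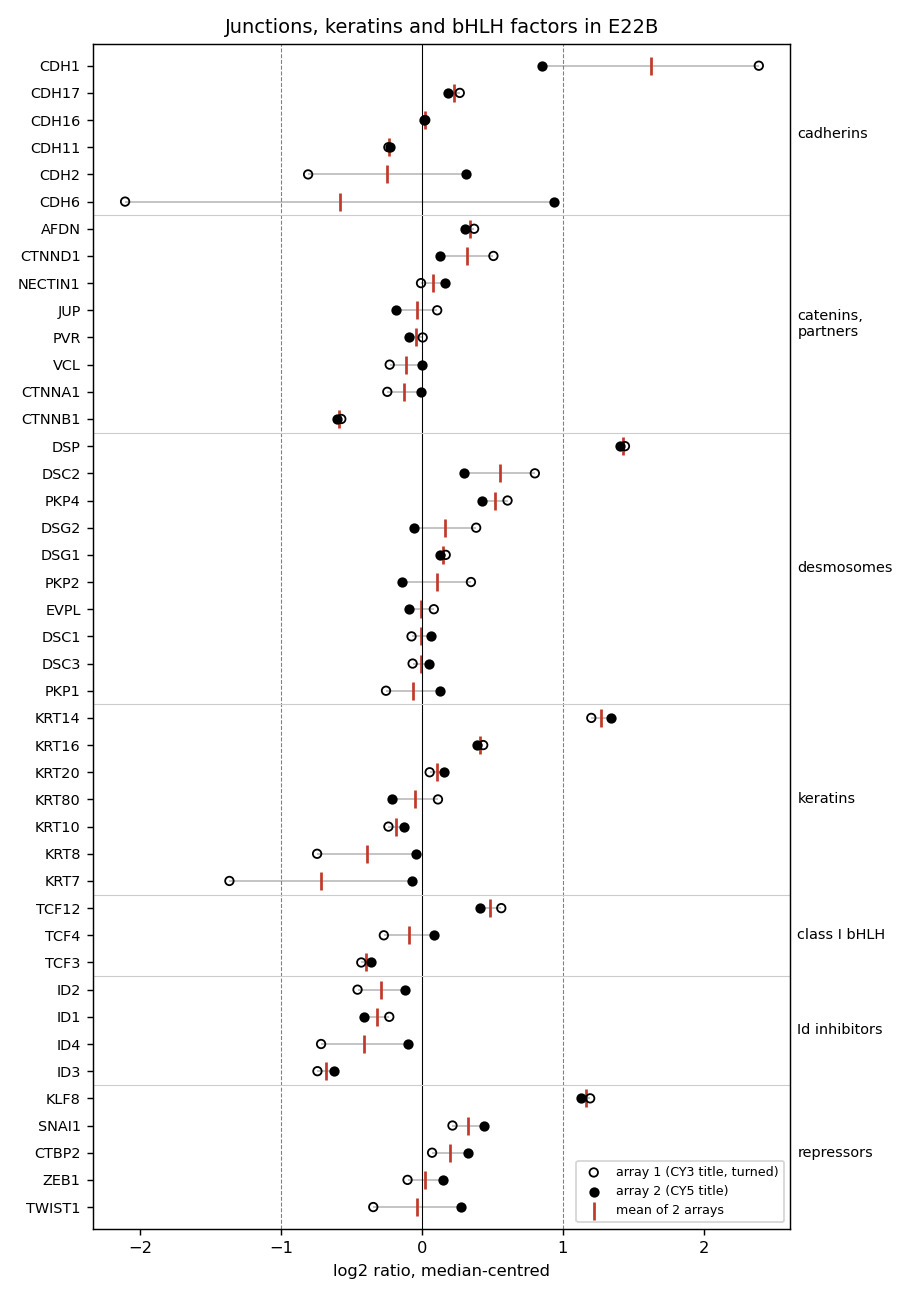
Log2 ratios of junction, keratin, class I bHLH, Id and repressor genes on array 1 (open) and array 2 (filled), grouped by role. All 4 Id genes lie left of 0, ID2 and ID4 only slightly on array 2, while DSP, KRT14 and KLF8 lie past 1 on both arrays.

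Matrix genes leaned to the FN1 side. Of 45 measured genes for matrix and its receptors, 21 (46.7%) were negative on both arrays and 10 (22.2%) positive, beside 32.2% and 35.9% of all genes. Proteoglycans were negative in 6 of 9, with LUM (lumican) at -0.96 and -0.28 and VCAN (versican) at -1.61 and -0.26. SPARC, a matrix glycoprotein, stood at -3.54 on array 1 but at -0.11 on array 2. COL15A1 (-1.30 and -0.28) and COL11A1 (-0.44 and -0.27) were negative, while COL4A1, of basement membrane, stood at 0.21 and 0.22. COL1A2 (0.32 and 3.21) and POSTN, periostin (0.52 and 5.59), had their size on array 2 only. Integrins were small: ITGB5 stood at -0.28 and -0.23, ITGA5 at -0.53 and -0.11, and ITGA2 at 0.18 and 0.37.

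Mesenchymal markers took both sides. Of 9 measured, 3 were positive on both arrays, 2 negative and 4 switched side, and VIM had no value on both. ENG, endoglin, a TGF-beta co-receptor, stood at -0.99 and -0.80 and CD44, a hyaluronan receptor, at -0.45 and -0.34. FAP (0.39 and 0.47), ACTA2, smooth muscle actin (0.30 and 0.43), and THY1 (0.29 and 0.12) were on the other side. LGALS1 (-2.53 and 0.12) and S100A4 (-1.72 and 0.53) were far from 0 on array 1 only.

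Actin-binding and contractile genes were negative in 10 of 17 (58.8%) and positive in 3 (17.6%), beside 32.2% and 35.9% of all genes, with a median of -0.19. PFN1, profilin, stood at -1.23 and -0.54. ARPC5, of the ARP2/3 complex, went the other way at 0.57 and 0.88, as did MYL9, a myosin light chain, at 0.47 and 0.49. Of the 7 tubulin and microtubule genes 6 switched side, with medians of -0.58 on array 1 and 0.51 on array 2.

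Protein phosphatase 1, which removes phosphates that protein kinases add, was measured through all 3 catalytic genes. PPP1CB, the catalytic subunit of myosin phosphatase, stood at 1.10 and 1.34. PPP1CC stood at 0.75 and 0.67, with a clone at 1.38 and 1.37 and another at 0.11 and -0.03. PPP1CA had a clone at 1.08 and 1.34 among 5 that otherwise lay between -0.13 and 0.57 on array 1. These genes are similar in sequence, and cross-hybridisation between them was not tested. PPP1R14B, which inhibits the phosphatase, was negative on both clones, at -2.07 and -1.32 and at -0.49 and -0.51. PPP1R12A, the myosin-targeting subunit, stood at -0.13 and -0.05.

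Extracellular proteases were led by PLAU, the urokinase that activates plasminogen, at 1.22 and 1.28. MMP14, a membrane metalloproteinase, stood at 1.64 and 0.85, and TIMP3, an inhibitor bound to matrix, at 0.55 and 1.68. MMP7 (-0.47 and -0.39), MMP9 (-0.21 and -0.37) and ADAM10 (-0.39 on both arrays) lay on the other side. Cathepsins stayed small, with CTSB at -0.76 and -0.20.

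In the TGF-beta and BMP pathway, ligands signal through receptor kinases to SMAD proteins. Of its 23 measured genes 10 (43.5%) were negative on both arrays and 7 (30.4%) positive, beside 32.2% and 35.9% of all genes. Their median was -0.10. The ligand BMP4 stood at -1.20 and -0.997 and BMP7 at -0.34 and -0.27. The receptor TGFBR1 stood at -0.41 and -0.31. The inhibitory SMADs were negative, SMAD7 at -0.65 and -0.54 and SMAD6 at -0.50 and -0.29, while the signal carrier SMAD1 stood at 0.30 and 0.34. LTBP4, which stores latent TGF-beta in the matrix and was not on the list, stood at -0.99 and -1.01. BMPR1B (0.47 and 6.52) had its size on array 2 only.

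Growth factor genes showed no common side. Of 31 measured genes of receptor tyrosine kinases other than the EGF family and their ligands, 11 (35.5%) were positive and 12 (38.7%) negative. Over all genes 35.9% were positive and 32.2% negative. VEGFC, which acts on lymphatic endothelium, stood at 0.89 and 0.88 and VEGFA, its relative for blood vessels, at 1.65 and 0.74. FGFR4 had a clone at -1.80 and -1.20 and another at 0.10 and -0.07. GAB1, a docking protein of these receptors, stood at 1.45 and 0.81. In the EGF family TGFA (-0.42 and -0.39) and EGFR (-0.31 and -0.21) were negative and HBEGF (0.65 and 0.27) positive.

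Feedback inhibitors of MAP kinase signalling had a median of 0.61, the highest of the groups with 9 or more measured genes. Of these 9 genes 5 (55.6%) were positive on both arrays and 2 (22.2%) negative, beside 35.9% and 32.2% of all genes. SPRY1 (Sprouty) stood at 1.25 and 0.88, DUSP5 at 0.67 and 0.54, DUSP6 at 0.38 and 1.69 and SPRED2 at 0.26 and 1.44. DUSP4 stood at -0.20 and -0.25 and ERRFI1, an EGFR inhibitor, at -0.23 and -0.28. Among immediate early genes FOS was the only one past 1.5-fold on both arrays. JUN stood at 0.48 and 0.28, FOSL2 at 0.46 and 0.22, JUNB at -0.14 and -0.21 and FOSB at -0.12 and 0.26. Of 10 measured, 4 (40%) were positive on both arrays and 2 (20%) negative.

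The interleukin-1 system had members past 1.5-fold on the inhibitory and the signalling side. IL1RN, the secreted receptor antagonist, stood at 1.28 and 1.42, and IL1R2, the decoy receptor, at 0.65 and 0.76. IL1RAP, the shared co-receptor, was positive on all 4 clones, at 1.19, 0.63, 1.73 and 0.60 on array 1 and at 0.67, 0.67, 1.21 and 0.16 on array 2. The signalling receptor IL1R1 stood at -0.06 and -0.08, and the ligands at -0.20 and -0.27 (IL1A) and 0.12 and 0.17 (IL1B). In the wider list of cytokines and NF-kappaB genes 6 of 17 (35.3%) were positive and 7 (41.2%) negative, beside 35.9% and 32.2% of all genes.

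In the Wnt pathway 8 of 22 measured genes (36.4%) were positive and 10 (45.5%) negative, beside 35.9% and 32.2% of all genes. The receptor FZD6 was positive on all 3 clones, the largest at 1.13 and 2.97, while FZD1 (-0.47 and -0.23), FZD2 (-0.57 and -0.22) and the ligand WNT5B (-0.49 and -0.37) were negative. In the Notch pathway 4 of 8 (50%) were positive and 2 (25%) negative. The receptor NOTCH3 stood at 0.36 and 0.52 and DLK1, an atypical ligand, at -0.57 and -0.39.

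DNA replication genes had the highest share on 1 side among groups of 8 or more measured genes. Of 26 measured, 19 (73.1%) were positive on both arrays and 0 negative, beside 35.9% and 32.2% of all genes, and the median was 0.18. Their sizes were mostly small. CDC6, which loads the replicative helicase onto origins, was the only one past 2-fold, at 1.35 and 1.80. POLE2, a subunit of polymerase epsilon, stood at 1.05 and 0.73, MCM4, of the helicase, at 0.60 and 0.96, and GINS1, of its active form, at 0.62 and 0.57. Clamp loader genes were close on both arrays, RFC3 at 0.46 and 0.48 and RFC4 at 0.35 and 0.39. RRM1, of ribonucleotide reductase, switched side at -0.34 and 0.42, and MCM7 at -0.48 and 0.34.

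Cyclins, their kinases and regulators were positive in 13 of 22 (59.1%) and negative in 2 (9.1%), beside 35.9% and 32.2% of all genes. CHEK1, the replication checkpoint kinase, stood at 0.97 and 1.20 and E2F5 at 0.59 and 0.47. Mitotic genes were positive in 10 of 27 (37.0%), close to the share of all genes, negative in 2 (7.4%) and on changing sides in 15. MAD2L1, of the spindle checkpoint, stood at 1.16 and 1.06, SMC2, of condensin, at 0.56 and 2.13, and PTTG1, securin, at 0.29 and 0.65. The list medians over these groups were larger on array 2 than on array 1, at 0.32 and 0.09 for replication and 0.23 and 0.04 for mitosis.

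Inhibitors of the cell cycle and p53 targets were close to all genes in their positive share, with 9 of 23 (39.1%) positive, beside 35.9% of all genes, and 5 negative. BTG1, an antiproliferative protein, stood at 1.15 and 1.06, PLK2, a p53-induced kinase, at 1.53 and 0.77, and CCNG1, a p53 target with 4 measured clones, at 0.68 and 1.21. MDM2, which degrades p53, stood at 0.49 and 0.58. Of 29 measured apoptosis genes 15 (51.7%) were positive and 4 (13.8%) negative, beside 35.9% and 32.2% of all genes. They were led by PDCD4, a translation inhibitor, at 0.86 and 1.13 and the receptor TNFRSF1B at 0.68 and 0.73. The PDCD4 value averages clones that disagreed, 1 at 0.36 and 2.34 and the other at 1.36 and -0.07.

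Of 22 measured respiratory chain genes, 12 (54.5%) were negative on both arrays, 4 (18.2%) positive and 6 switched side, beside 32.2% negative and 35.9% positive of all genes. The median was -0.27, and 3 of the 22 were past 1.5-fold on the negative side, beside 0.455% of all genes. NDUFB3, of complex I, stood at -0.83 and -0.93 on 1 clone and at -1.16 and -0.95 on the other. ATP5MF, of ATP synthase, stood at -1.02 and -0.90 and NDUFA1, of complex I, at -0.64 and -0.90. COX8A (-0.54 and -0.35) and COX7A2 (-0.68 and -0.31), small subunits of complex IV, were also negative. The subunits NDUFS1 (0.37 and 0.43) and SDHA (0.19 and 0.23) and the electron carrier CYCS (0.35 and 0.23) were positive. ATP5MK and COX7B2, small subunits that were not on the list, stood at -1.30 and -0.87 and at -0.78 and -0.71.

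**Figure D4:**
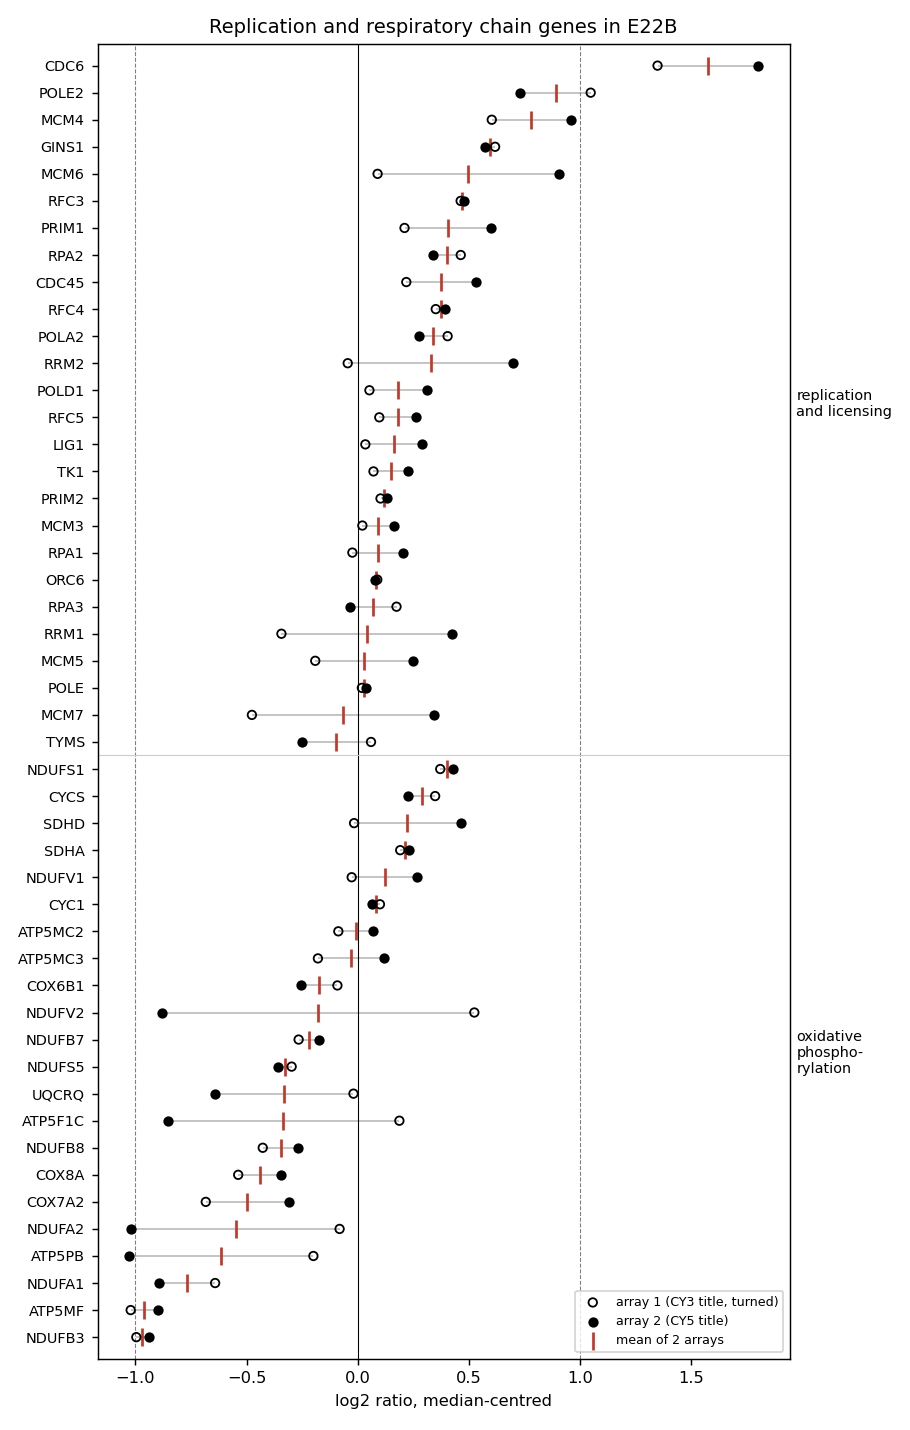
Log2 ratios of 26 replication genes and 22 oxidative phosphorylation genes on array 1 (open) and array 2 (filled), ordered by the mean within each group. No replication gene is negative on both arrays, and 12 oxidative phosphorylation genes are.

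Stress response genes were positive on both arrays in 35 of 74 (47.3%) and negative in 11 (14.9%), beside 35.9% and 32.2% of all genes. Of 19 measured genes of the unfolded protein and amino acid response 10 (52.6%) were positive and 3 (15.8%) negative (median 0.31). ASNS, asparagine synthetase, stood at 1.77 and 1.15, HERPUD1, of protein disposal at the endoplasmic reticulum, at 1.32 and 0.73, and PSAT1, of serine synthesis, at 0.72 and 0.63. MTHFD2, of mitochondrial folate metabolism, stood at 2.25 and 0.54. CTH, which makes cysteine from cystathionine and was not on the list, stood at 1.55 and 0.98. VLDLR, a lipoprotein receptor, was negative at -0.75 and -0.78.

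Heat shock and chaperonin genes were positive in 11 of 21 (52.4%) and negative in 2 (9.5%), beside 35.9% and 32.2% of all genes. Their medians were 0.04 on array 1 and 0.30 on array 2. The mitochondrial chaperones HSPD1 (0.82 and 1.68) and HSPA9 (0.80 and 0.93) were past 1.5-fold, and the chaperonin subunits CCT4 (0.31 and 0.64) and CCT3 (0.38 and 0.30) were smaller. Of 16 oxidative stress genes 8 (50%) were positive and 3 (18.8%) negative. GCLC, of glutathione synthesis, stood at 0.82 and 0.78 over 2 clones, and HMOX1, heme oxygenase, at 0.37 on both arrays. Hypoxia and glycolysis genes were positive in 6 of 18 (33.3%) and negative in 3 (16.7%). HIF1A, the hypoxia factor, stood at 0.44 and 0.38 and PKM, of glycolysis, at -1.25 and -0.35. Of 28 interferon response genes 13 (46.4%) were positive and 6 (21.4%) negative. IFIT3 stood at 0.70 and 1.30, HLA-B, a class I antigen, at 0.62 and 1.04 and OAS2, an RNA sensor, at 0.36 and 0.35.

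Other nucleotide synthesis genes, outside the lists and chosen after their values were seen, had these values. PRPSAP2, which binds phosphoribosyl pyrophosphate synthetase, stood at 1.26 and 0.97, PRPS2, such a synthetase, at 0.59 and 0.65, and UMPS, of pyrimidine synthesis, at 0.75 and 1.18. IMPDH2 stood at 0.30 and 0.07 and PRPS1 switched side at -0.13 and 0.28. Lipid genes were mixed: ACSL1, which activates fatty acids, stood at 1.36 and 1.06, CH25H, which hydroxylates cholesterol, at 1.16 and 1.00, and FADS2, a desaturase, at -0.22 and -0.44. Of the annexins, calcium-dependent membrane binders, ANXA3 stood at 1.62 and 0.98 and ANXA4 at 0.83 and 0.80, and ANXA6 at -0.74 and -0.29.

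Of 93 measured genes for the machinery of gene expression, 37 (39.8%) were positive on both arrays and 24 (25.8%) negative. Over all genes the shares were 35.9% and 32.2%. Its parts differed. Ribosomal proteins were positive in 10 of 24 (41.7%) and negative in 8 (33.3%), with a median of 0.06. RPL10 stood at 0.55 and 1.32 and RPS16 at -0.44 and -0.86. RPS16 averages a clone at 0.09 and 0.06 with others at -0.74 and -1.14 and at -0.68 and -1.50. Translation factors leaned to the positive side, with 9 of 19 (47.4%) positive and 1 (5.3%) negative (median 0.14). The negative one was EIF3A at -0.23 and -0.21. Splicing genes were negative in 9 of 21 (42.9%) and positive in 6 (28.6%), led by SNRPG, of the spliceosome core, at -1.44 and -0.67. Chromatin genes were positive in 12 of 29 (41.4%) and negative in 6 (20.7%), with HMGA1, an architectural protein, at 0.53 and 0.73. Proteasome and ubiquitin genes switched side in 23 of 43, beside 31.9% of all genes, and 30.2% were positive and 16.3% negative. PSMB7, a catalytic subunit, was the only one past 1.5-fold at 1.06 and 1.22.

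Kidney tubule genes took no side: 6 of 8 changed it between arrays, among them AQP3, a water channel (1.29 and -0.12), and ATP1B1, of the sodium pump (0.33 and -1.51). Of 9 polarity genes 4 were positive and 3 negative, with RDX, radixin, at 0.28 and 1.13 and MAL, of apical transport, at 1.15 and 0.26. Of 5 measured epithelial markers, CDH1, DSP and CDH16 were positive on both arrays, KRT8 was negative and EPCAM switched side. Their medians were 1.44 on array 1 and 0.02 on array 2. The 9 measured leukocyte markers had means from -0.18 to 0.22 and the 5 endothelial markers from -0.24 to 0.05. The 5 fibroblast markers had means from -0.62 (LUM) to 1.77 (COL1A2, with its size on array 2 only), and 3 were positive and 1 negative on both arrays. A ratio gives no level, so marker values do not show whether any such cell, or the epithelial type itself, was present.

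**Figure D5:**
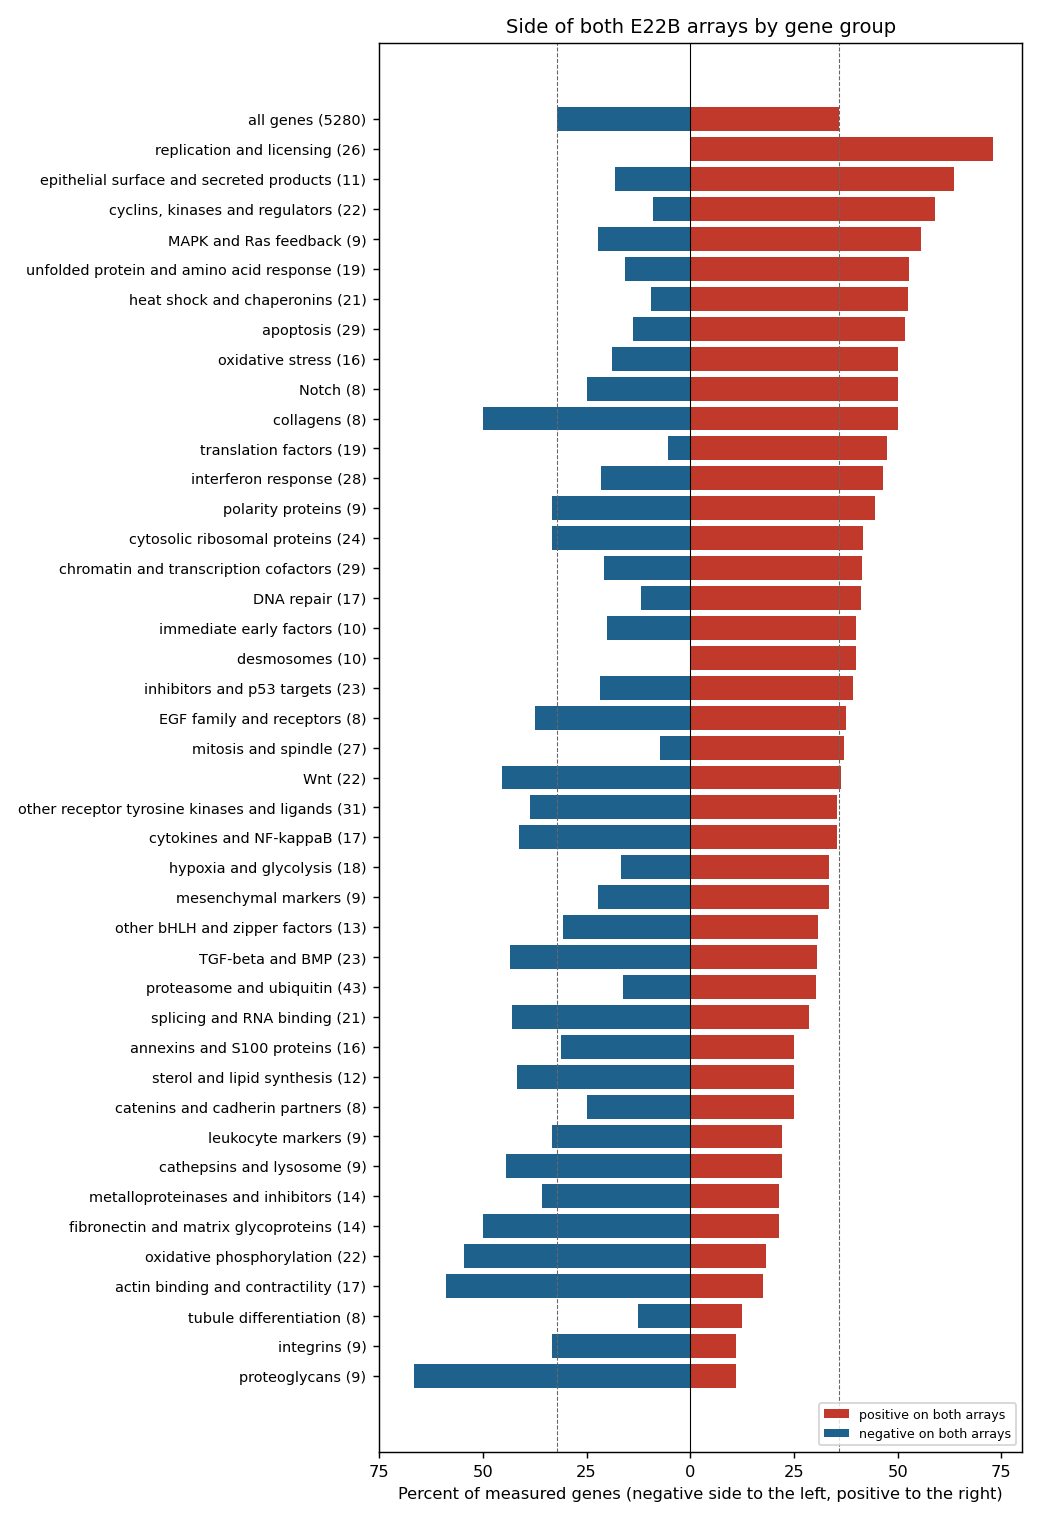
Percent of the measured genes of each group shown (number in brackets) that were positive (right) or negative (left) on both arrays, with dashed lines at the values over all 5280 genes, 35.9% and 32.2%. Replication genes have the highest positive share, 73.1%, and proteoglycans the highest negative share, 66.7%, over 9 genes.

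The 9 genes at 2-fold on opposite sides had the same sign on both arrays as deposited, before array 1 was turned. EGR1, an immediate early factor, stood at -1.002 and 3.54, ADGRL2, an adhesion receptor, stood at -1.79 and 1.61, TUBB3, a tubulin, at -1.19 and 1.23 and S1PR1, a lipid receptor, at -1.09 and 1.30. Of the opposite kind were F3, tissue factor (3.75 and -1.35), TSPAN13 (1.83 and -1.19), SAT1 (1.13 and -1.16), RGS2 (2.37 and -1.05) and HS3ST1 (1.32 and -1.05). A further 13 genes were at 3 or more in size on 1 array and under 1 on the other. Besides BMPR1B, POSTN, COL1A2 and SPARC these included DNA2, a nuclease and helicase, at 0.70 and 4.77 and PDGFC, a growth factor, at 0.17 and 4.79. GALNT3, a glycosyltransferase, stood at 4.43 and -0.27. The large value was on array 2 for all of the 13 except SPARC and GALNT3.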

How the data were processed

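Per the deposited tables, the authors gave 1 ratio per spot, read as log2; the base is assumed. The numerator dye, image analysis, background correction and method of normalisation: not given in the sources used here. Two-channel cDNA arrays of human clones were read with dog RNA, so cross-species mismatch can weaken signals. From these values the mean of each clone's duplicate spots was taken, the array's median was subtracted, array 1 (CY3 in its title) was turned, and clones of 1 symbol were averaged; 8744 of 13824 clones had 1 symbol. The steps were tested on simulated data. Python 3.11.15, pandas 2.3.3, numpy 2.4.6 and matplotlib 3.10.9 were used. Both arrays form 1 biological sample, so no test was made and no depth applies; the number of arrays limits the precision. Replicate numbers follow accession order and pair nothing. All genes past 2-fold on both arrays were named, also those on opposite sides, with up to 4 per role of a gene list by size on the smaller array. A fixed set of transition genes such as CDH1, TCF4 and ID1 to ID3 was added. Members and lists were chosen with earlier results of these data known, and some genes (the phosphatase, interleukin-1 and nucleotide genes, single clones and others outside the lists) were singled out after their values were seen. Alternatives covered centring, scaling, duplicate spots, clones, turning, fold limit and leaving out an array. No sequences were used.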

Additional observations from a re-analysis of the deposited data

How the results depend on the processing

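The 33 positive and 5 negative genes all stayed past 2-fold without median centring and with both arrays scaled to the same spread, and the counts were then 33 and 36 positive. Without centring the negative count was 8. At 1.5-fold the counts were 133 positive and 24 negative. On 1 array alone they ranged from 116 to 131 positive and from 45 to 63 negative. These counts include genes and clones measured on that array only, unlike the counts over 5280 genes. Taking the clone nearest 0 of each gene lost IMPDH1 (0.28), moved CDH1 from 1.62 to 0.93 and put CTNNB1 at 0.13 instead of -0.59. Keeping clones with a value on all 4 arrays of the series gave 27 positive and 5 negative genes, with CDH1 again at 0.93. Of the 38 genes, 28 positive and 4 negative ones were still measured, and of these only IMPDH1 (0.28) was lost. DCUN1D5, IL1RN, PJA2, STEAP1, TRIP10 and CLEC11A had no such clone. With duplicate spots within 0.5, the 28 positive and 4 negative genes still measured were all past 2-fold. The FOS mean was 1.52 on array 1 alone, where its second clone enters. With no array turned, 4 genes were positive and 5 negative at 2-fold, and 0 of the 38 were among them. By construction that setting subtracts the values of the arrays, and these means of genes past 2-fold took the opposite sign: TMSB4X 0.65, FN1 0.36, ESM1 0.40, TMSB4Y 0.27, P2RX4 -0.0175, ELF2 -0.0355, MAD2L1 -0.0472, BTG1 -0.0448, KLF8 -0.0330, ACSL1 -0.15, DPP4 -0.12, DCUN1D5 -0.12, IMPDH1 -0.0376, DSP -0.0164, ASNS -0.31, LRATD2 -0.69 and KLF4 -0.40. Among genes not past 2-fold on both arrays, means that did so included CDH1 (-0.77), CDH2 (0.56), ID2 (0.17), ID3 (0.06), TCF3 (0.03), TCF4 (0.18), TWIST1 (0.31) and KRT8 (0.35). No paired analysis was possible because the comparison has 1 biological sample against 1 control and rests on no test. The open numerator dye would reverse every sign together and leave sizes and groupings as they are.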

Other observations

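Clones with no gene symbol or with several showed about the same shares past 2-fold on both arrays as named genes. The units differ, since these are single clones and the named genes are averages over clones. Of 4185 such clones with a value on both arrays, 25 (0.597%) were positive and 5 (0.119%) negative. They are not described further here.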
